A study of Homo sapiens with 12 samples.

Results

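Non-coding host genes of small nucleolar RNAs (snoRNAs) were followed across RNA and chromatin libraries of K562. The 10 members are GAS5, SNHG1, SNHG5, SNHG6, SNHG8, SNHG12, SNHG15, SNHG26, ZFAS1 and EPB41L4A-AS1, summed over their hg38 spans on their own strand. They were chosen by name and not by a measured value, though with earlier results of these data known. They are 10 of the 21881 features (transcribed regions and gene spans) in the table that was tested. K562 is an established human line derived from chronic myelogenous leukaemia. All 8 RNA libraries came from cells given 500 µM 4-thiouridine (4sU), a uridine analogue that enters new RNA, for 5 min. In TT-Seq the RNA was sheared by sonication before the labelled fraction was purified. In 4sU-Seq labelled RNA was purified unsheared, Total RNA-Frag-Seq was sheared RNA without purification, called sheared total RNA in comparisons. Total RNA-Seq had neither step and is called unsheared total RNA. The chromatin immunoprecipitation (ChIP) libraries used the N-20 antibody against RNA polymerase II and an antibody against its serine 2 phosphorylated form (S2P), after 7.5 min of crosslinking. Each of the 6 groups had 2 libraries. The design text calls the RNA libraries biological duplicates; nothing says so for ChIP, so p-values there measure only the spread between those libraries.

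Most snoRNAs guide the chemical modification of ribosomal and spliceosomal RNA, and in human cells they are usually cut out of introns of a longer host transcript. In a non-coding host the spliced RNA carries no long conserved reading frame, and several such RNAs are known to be short-lived because translation triggers their nonsense-mediated decay. Many hosts belong to the 5′ terminal oligopyrimidine class, whose RNA starts with a C followed by a run of C and T and whose translation follows growth signals.

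By RefSeq, GAS5 held 11 snoRNA genes in its span, SNHG1 held 9, SNHG12 held 4, ZFAS1 held 3 and SNHG5 held 2. The other 5 members held 1 each. GAS5 (chr1:173863901-173869045, minus strand, GRCh38.p14) hosts the SNORD74 to SNORD81 cluster together with SNORD44, SNORD47 and SNORA103, SNHG1 (chr11:62851978-62855885, minus) SNORD22, SNORD25 to SNORD31 and a snoRNA gene without a symbol, and ZFAS1 (chr20:49278178-49289260, plus) SNORD12, SNORD12B and SNORD12C. Counts were summed over bins of 200 bp, so a bin that holds a snoRNA also holds flanking intron or exon, and these cannot be told apart. GAS5, SNHG6, SNHG12 and EPB41L4A-AS1 overlap other RefSeq genes. RNA counts on the opposite strand were 0.189% to 3.74% of the counts of both strands for the 9 members other than SNHG12, and 2.71% to 27.0% for SNHG12, with both TT-Seq libraries highest.

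The start regions of 5 members are shown, 4 because their longest run of C and T crosses the annotated start and holds CTTT, and SNHG1 because it lacks CTTT there. They run from 250 bases before to 50 bases after the start and come from RefSeq, GRCh38.p14: chr6:85678684-85678983 (SNHG5, minus), chr4:118278512-118278811 (SNHG8, plus), chr1:28581824-28582123 (SNHG12, minus), chr20:49278392-49278691 (ZFAS1, plus) and chr11:62855836-62856135 (SNHG1, minus). Capitals mark the longest unbroken run of C and T within 20 bases of the start, the first where runs are equally long.
SNHG5: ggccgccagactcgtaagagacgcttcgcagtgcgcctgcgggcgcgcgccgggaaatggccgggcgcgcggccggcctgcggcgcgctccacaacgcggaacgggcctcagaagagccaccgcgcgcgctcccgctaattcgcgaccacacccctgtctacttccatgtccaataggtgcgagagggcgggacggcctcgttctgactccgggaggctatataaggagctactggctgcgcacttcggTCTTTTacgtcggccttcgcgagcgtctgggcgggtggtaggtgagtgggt
SNHG8: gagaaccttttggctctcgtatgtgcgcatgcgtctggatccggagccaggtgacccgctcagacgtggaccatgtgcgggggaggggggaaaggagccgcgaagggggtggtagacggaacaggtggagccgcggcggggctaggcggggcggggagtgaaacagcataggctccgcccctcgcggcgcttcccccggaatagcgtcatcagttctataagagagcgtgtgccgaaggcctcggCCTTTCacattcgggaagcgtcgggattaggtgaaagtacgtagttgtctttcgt
SNHG12: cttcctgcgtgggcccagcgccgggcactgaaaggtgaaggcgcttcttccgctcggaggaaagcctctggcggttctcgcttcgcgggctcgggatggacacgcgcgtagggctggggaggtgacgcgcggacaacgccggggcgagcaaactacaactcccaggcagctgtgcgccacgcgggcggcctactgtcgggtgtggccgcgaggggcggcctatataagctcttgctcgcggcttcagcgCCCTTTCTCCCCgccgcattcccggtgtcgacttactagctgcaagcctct
ZFAS1: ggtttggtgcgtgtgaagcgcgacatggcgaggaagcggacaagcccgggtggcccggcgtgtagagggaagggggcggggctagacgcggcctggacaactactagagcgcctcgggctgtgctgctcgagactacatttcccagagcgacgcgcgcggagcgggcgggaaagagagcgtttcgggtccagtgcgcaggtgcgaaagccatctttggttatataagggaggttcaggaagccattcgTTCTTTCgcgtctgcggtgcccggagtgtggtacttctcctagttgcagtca
SNHG1: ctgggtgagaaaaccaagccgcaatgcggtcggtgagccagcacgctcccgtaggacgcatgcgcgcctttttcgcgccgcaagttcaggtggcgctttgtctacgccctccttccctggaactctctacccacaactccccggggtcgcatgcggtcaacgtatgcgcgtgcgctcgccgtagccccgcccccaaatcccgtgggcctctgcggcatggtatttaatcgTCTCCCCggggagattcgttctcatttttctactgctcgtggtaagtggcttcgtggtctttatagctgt
In SNHG5, SNHG8, SNHG12 and ZFAS1 the marked run spans the annotated start, whereas in SNHG1 it lies upstream of it. SNHG1 also has an equally long run, TTTTTCT, just after the start, and the shorter TTCTC crosses the start. The upstream run is marked only because it comes first. Of the 8 members with a promoter entry, 5 had CTTT on the gene strand within 20 bases of the start, against 16.0% of 35116 RefSeq promoters. The C and T run of SNHG12 was 12 bases long, a length reached by 4.25% of promoters. GGGCGG on either strand occurred in 6 of the 8, against 45.0% of all promoters, TATAAA on either strand in 1 against 11.5%, and CACGTG, which reads the same on both strands, in 0 against 7.26%. The TATAAA match is in SNHG1, on the opposite strand and after the start. SNHG5, SNHG12 and ZFAS1 hold TATATAAG upstream of the start, which TATAAA does not match. How often TATATAAG occurs in all promoters was not tested. GAS5 and EPB41L4A-AS1 also lacked the CTTT, and in both the RNA signal began inside the annotated span. The first 6 bins of GAS5 held at most 0.04 CPM (the usual count scaled to a common library size) in any RNA group, and bin 7 held 4.33 CPM in TT-Seq, so these RefSeq starts lay in bins nearly without RNA and are not shown.

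Levels were compared per kb of binned span, the 200 bp bins that touch each span. These bins run past the ends of the span, by the largest share in SNHG8, where 7 bins cover 1062 bp. In TT-Seq, SNHG8 (23.97 ± 3.56 CPM per kb, SD, n = 2), GAS5 (23.2 ± 1.68) and SNHG1 (22.7 ± 1.40) were highest and did not differ beyond their spread on this length. Ranks that involve SNHG8, GAS5 or EPB41L4A-AS1 depend on the length used. That of SNHG8 exceeds its span, and those of GAS5 and EPB41L4A-AS1 include bins nearly without RNA at their annotated starts. The spans of SNHG12 and ZFAS1 also begin upstream of the starts used above. SNHG5 (15.8 ± 3.73) and SNHG6 (13.2 ± 1.40) followed and also overlapped. Below them came ZFAS1 (9.16 ± 0.460), SNHG15 (8.22 ± 0.207), EPB41L4A-AS1 (7.86 ± 0.086), SNHG26 (4.39 ± 0.078) and SNHG12 (2.68 ± 0.069). The order changed in Total RNA-Seq, where SNHG5 was highest at 54.9 ± 7.24 CPM per kb and SNHG26 lowest at 2.94 ± 0.161. In 4sU-Seq SNHG8 led at 60.3 ± 4.58 CPM per kb. In Total RNA-Frag-Seq replicate 2 lay below replicate 1 for each of the 10 members, most for SNHG5, at 61.6 and 37.7 CPM per kb.

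**Figure D1:**
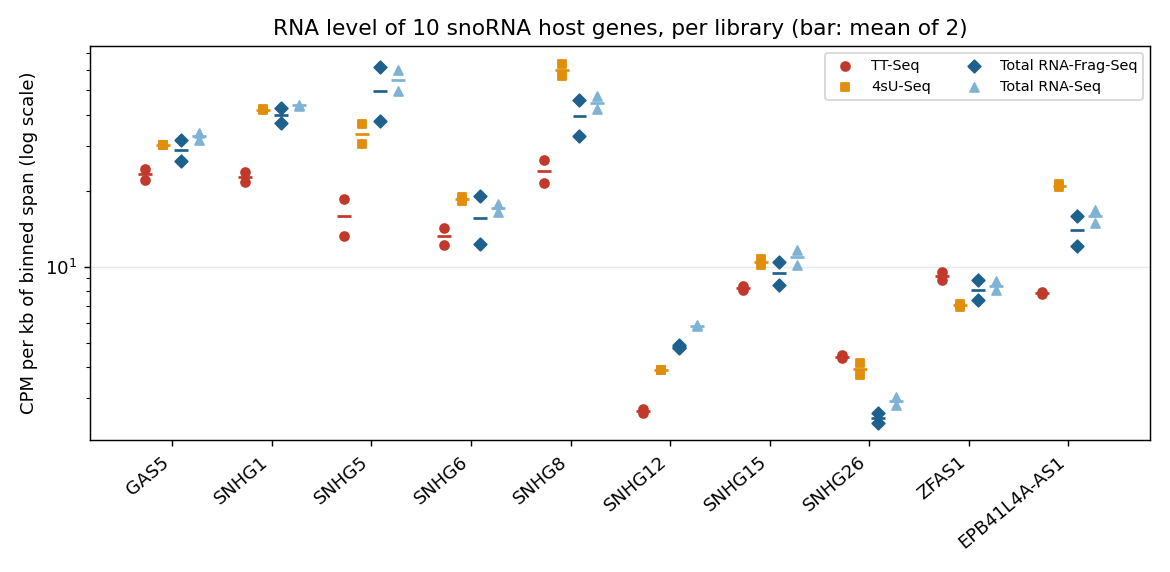
RNA level of each member in CPM per kb of binned span (log axis), 1 point per library and a bar at the mean of 2 libraries, coloured by group. TT-Seq lies lowest of the 4 groups for EPB41L4A-AS1 (7.80 and 7.92) and highest for SNHG26 (4.34 and 4.45).

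TT-Seq was first set against Total RNA-Frag-Seq, which compares purified new RNA with all RNA when both were sheared. Members GAS5, SNHG1, SNHG5, SNHG8, SNHG12 and EPB41L4A-AS1 (6 of 10) were lower in TT-Seq by edgeR's quasi-likelihood test, and SNHG26 and ZFAS1 (2 of 10) were higher. Among all features tested, 81% passed the test, 43.3% higher and 37.7% lower. The member median was -0.52 on the log2 scale, against 0.10 for all features. Features within the members' range of lengths, 1062 to 11083 bp, were 67.3% higher and 15.4% lower, around a median of 1.41. Most of those are regions the authors called on the TT-Seq signal itself, which member spans were not. The same limit applies to the set of all features, here and in the other comparisons with it.

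SNHG5, host of SNORD50A and SNORD50B, had the lowest fold change. Its level was 33.2 and 23.8 CPM in TT-Seq and 110.9 and 67.8 CPM in sheared total RNA. The groups did not overlap, which in this comparison held for 8 members and for 91.5% of all features tested. The log2 difference was -1.65 ± 0.30 (SE, edgeR adjusted p = 0.00362).

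SNHG1 stood at 99.4 and 91.1 CPM in TT-Seq and at 178.8 and 156.1 CPM in sheared total RNA, so both TT-Seq libraries were lower (-0.82 ± 0.064, edgeR adjusted p = 8.5e-09). SNHG12, host of 3 H/ACA snoRNAs and SNORD99, stood at 12.6 and 12.1 CPM against 22.4 and 21.8 CPM, again without overlap (-0.84 ± 0.082). EPB41L4A-AS1, host of SNORA13, had 17.4 and 17.2 CPM against 34.9 and 26.6 CPM (-0.84 ± 0.106). These 3 differences were of like size.

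SNHG8, host of SNORA24, had 37.1 and 30.0 CPM in TT-Seq and 63.9 and 46.3 CPM in sheared total RNA (-0.72 ± 0.152). GAS5 had 131.7 and 118.9 CPM against 170.9 and 140.9 CPM (-0.32 ± 0.079, edgeR adjusted p = 0.00214). Both TT-Seq libraries were lower in each, but without TMM scaling, a correction for differing library composition, GAS5 turned to 0.03 (adjusted p = 0.735) and SNHG8 fell short of the threshold (adjusted p = 0.0612). The GAS5 call was also lost without TT-Seq replicate 2 (-0.21, adjusted p = 0.0528).

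SNHG26, host of SNORD93, went the other way, with 32.9 and 32.1 CPM in TT-Seq and 19.4 and 17.8 CPM in sheared total RNA (0.80 ± 0.086, edgeR adjusted p = 3.46e-07). ZFAS1 had 108.1 and 100.7 CPM against 100.8 and 83.9 CPM, and the groups overlapped (0.17 ± 0.077, adjusted p = 0.0478). The ZFAS1 call was lost in 12 alternatives; without Total RNA-Frag-Seq replicate 2 it was 0.02 (adjusted p = 0.851). SNHG6 (-0.25 ± 0.173, adjusted p = 0.215) and SNHG15 (-0.20 ± 0.094, adjusted p = 0.0558) did not pass the test. Without Total RNA-Frag-Seq replicate 2, SNHG6 was -0.55 and passed, and SNHG15 passed in 10 alternatives, at -0.38 to -0.20.

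The same contrast was read in unsheared RNA. In 4sU-Seq against unsheared total RNA, SNHG8 (0.43 ± 0.15), SNHG26 (0.43 ± 0.088) and EPB41L4A-AS1 (0.40 ± 0.104) were higher and SNHG12 (-0.59 ± 0.082) and ZFAS1 (-0.26 ± 0.079) lower. Of all features 68.3% passed, 40.2% higher and 28.1% lower, with a median of 0.19 against -0.06 for the members. In the members' range of lengths 56.1% were higher and 10.4% lower. EPB41L4A-AS1 had 46.5 and 45.4 CPM in 4sU-Seq and 37.0 and 32.7 CPM in Total RNA-Seq, without overlap. The groups did not overlap in 9 members and in 85.2% of all features. The SNHG8 call was lost in 7 alternatives (adjusted p up to 0.232 with the DESeq2 Wald test). The calls of SNHG26 (0.23 without Total RNA-Seq replicate 1), EPB41L4A-AS1 (0.31 without Total RNA-Seq replicate 2) and ZFAS1 (-0.11 without TMM scaling) were lost in 1 alternative each. The other 5 members did not pass the test, although GAS5 passed as lower in 8 alternatives and SNHG5 in 7. Without Total RNA-Frag-Seq replicate 2 the number lower was 6, and without either Total RNA-Seq replicate the number higher was 1.

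**Figure D2:**
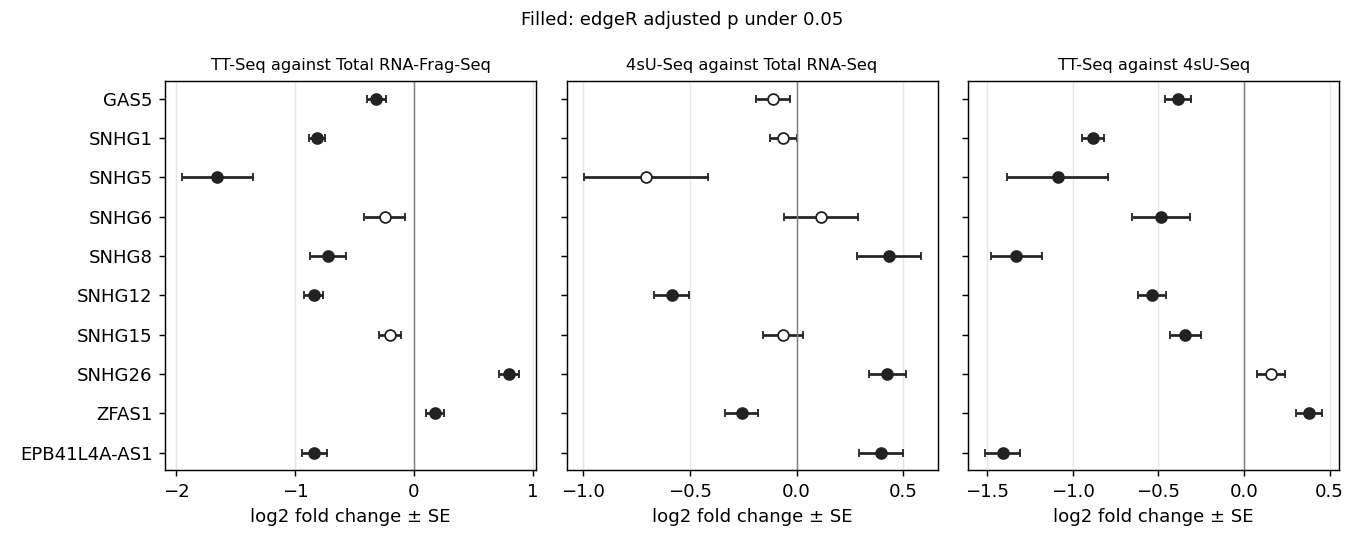
Log2 fold change with its standard error for each member in 3 comparisons, filled where the edgeR adjusted p is under 0.05. EPB41L4A-AS1 and SNHG8 are on the lower side in both comparisons with TT-Seq and on the higher side in 4sU-Seq against unsheared total RNA.

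Within purified RNA, 8 members were lower in TT-Seq than in 4sU-Seq and ZFAS1 was higher, while 48.2% of all features passed, 19.6% higher and 28.6% lower. In the members' range of lengths 11% were higher and 18.8% lower. The member median was -0.51 against 0.01. EPB41L4A-AS1 differed most, with 17.4 and 17.2 CPM in TT-Seq and 46.5 and 45.4 CPM in 4sU-Seq (-1.41 ± 0.102, edgeR adjusted p = 2.49e-08). SNHG8 followed, at 37.1 and 30.0 CPM against 79.9 and 89.0 CPM (-1.33 ± 0.149), and then SNHG5 (-1.09 ± 0.295), SNHG1 (-0.88 ± 0.064) and SNHG12 (-0.54 ± 0.081).

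ZFAS1 had 108.1 and 100.7 CPM in TT-Seq and 81.4 and 78.9 CPM in 4sU-Seq (0.38 ± 0.076, edgeR adjusted p = 5.73e-04), and SNHG26 did not pass the test (0.16 ± 0.081). GAS5 (-0.39 ± 0.078), SNHG15 (-0.34 ± 0.092) and SNHG6 (-0.49 ± 0.169) were lower. The SNHG6 call was lost in 9 alternatives and the SNHG5 call in 6. With the snoRNA bins left out, SNHG12 was -0.17 and did not pass (adjusted p = 0.221). Leaving out TT-Seq replicate 2 left 5 members lower.

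The effect of shearing was read in unpurified RNA. In sheared against unsheared total RNA only SNHG12 was lower (-0.28 ± 0.084, edgeR adjusted p = 0.0241), where 21.9% of all features passed, 16.5% higher and 5.48% lower (1613 and 3231 features without TMM scaling, against 3203 and 1066). In the members' range of lengths 0.4% were higher and 6.17% lower. The members' count was 0 without Total RNA-Seq replicate 2, 3 without Total RNA-Seq replicate 1, 5 without either TT-Seq replicate, 6 without Total RNA-Frag-Seq replicate 1 and 5 with DESeq2 size factors. The SNHG12 call itself was lost without Total RNA-Frag-Seq replicate 1 (adjusted p = 0.0561), without Total RNA-Seq replicate 2 (adjusted p = 0.12) and with the snoRNA bins left out (adjusted p = 0.0823). The purification effect itself depended on shearing in 5 members. In that interaction EPB41L4A-AS1 (-1.23 ± 0.148), SNHG8 (-1.15 ± 0.214) and SNHG1 (-0.75 ± 0.091) were lower and ZFAS1 (0.43 ± 0.110) and SNHG26 (0.37 ± 0.123) higher. Of all features 34.4% passed, 8.65% higher and 25.7% lower (3509 and 3268 features without TMM scaling, against 1684 and 5008). In the members' range of lengths 5.64% were higher and 10.3% lower.

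Counts were not spread alike along the spans. In SNHG1 the 3 bins at 3384.5 to 3784.5 bases from the 5′ end, which hold no snoRNA, reached 32.0, 50.7 and 27.0 CPM in Total RNA-Seq and 10.97, 17.3 and 9.20 CPM in TT-Seq. The bins before the midpoint held 37.4% and 38.2% of SNHG1 counts in TT-Seq, 17.9% and 17.3% in 4sU-Seq and 21.0% to 27.6% in the other libraries. Both TT-Seq libraries had the higher share.

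GAS5 peaked in all 8 libraries in the bin that holds SNORD81 near its 3′ end, at 44.9 CPM in Total RNA-Seq and 16.0 CPM in TT-Seq. Before its midpoint lay 32.6% and 35.0% of counts in TT-Seq and 13.3% to 19.3% in the others, which did not overlap. That part is 13 of 27 bins of the annotated span, and the first of them were nearly without RNA, which lowers the share in every library. EPB41L4A-AS1 had the opposite layout: its highest bin was the fourth in all 8 libraries, at 25.6 CPM in 4sU-Seq, 20.5 CPM in Total RNA-Seq and 4.75 CPM in TT-Seq. Its share before the midpoint was 45.0% and 51.0% in TT-Seq against 79.3% to 83.4% elsewhere. In ZFAS1, 1 bin near the 3′ end stood at 27.1 CPM in Total RNA-Seq and 8.94 CPM in TT-Seq.

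**Figure D3:**
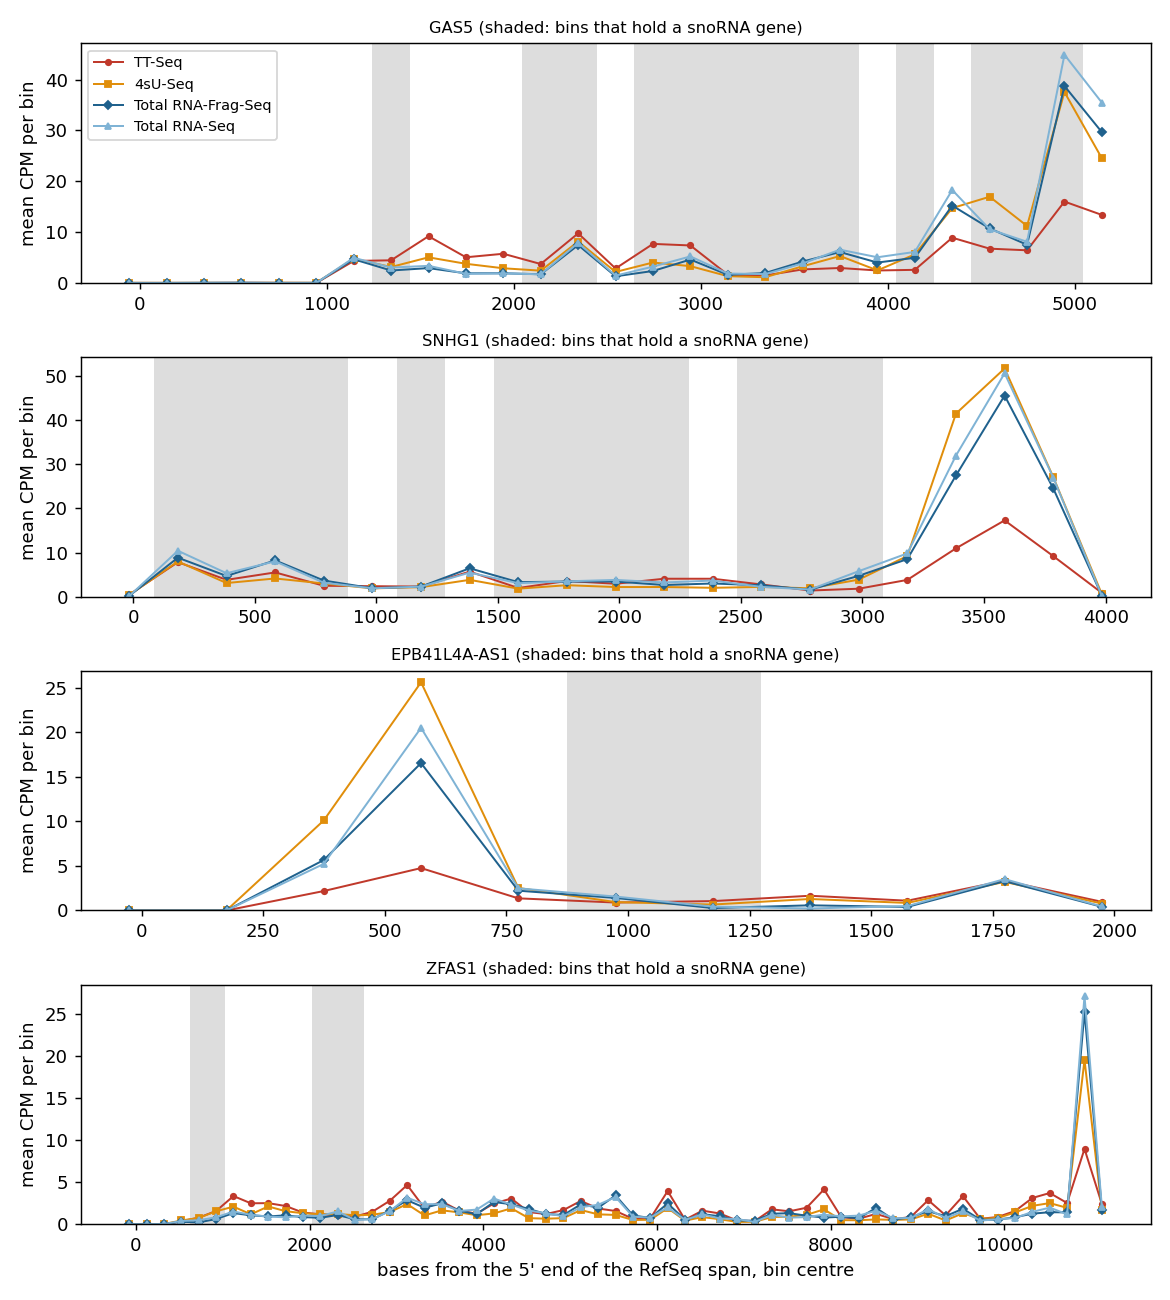
Mean CPM per 200 bp bin along GAS5, SNHG1, EPB41L4A-AS1 and ZFAS1, by bases from the 5′ end of the span, with bins that hold a snoRNA gene shaded. The largest peaks (44.9 CPM in GAS5, 51.7 CPM in SNHG1, 25.6 CPM in EPB41L4A-AS1, 27.1 CPM in ZFAS1) belong to groups other than TT-Seq.

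The bins that hold snoRNAs were then compared with the rest of each host, as a ratio of densities tested with limma over 287 hosts. In SNHG1 these were 12 of 21 bins, and their density lay below that of the rest in every RNA library. They held 42.5% and 42.5% of counts in TT-Seq, 21.3% and 21.1% in 4sU-Seq, 27.3% and 32.1% in sheared and 29.8% and 27.4% in unsheared total RNA. TT-Seq was above every other library. The log2 ratio was higher in TT-Seq than in 4sU-Seq by 1.46 ± 0.210 (limma adjusted p = 0.0043) and than in sheared total RNA by 0.81 ± 0.210 (adjusted p = 0.0124).

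In EPB41L4A-AS1 2 of 11 bins hold a snoRNA, again less dense than the rest in every RNA library. For their share of counts TT-Seq was also highest and 4sU-Seq lowest, with 11.5% and 10.97% in TT-Seq, 3.50% and 3.49% in 4sU-Seq, 4.28% and 7.004% in sheared and 5.83% and 5.58% in unsheared total RNA. Its ratio was higher in TT-Seq than in 4sU-Seq by 1.80 ± 0.265 (limma adjusted p = 0.0043). In GAS5, where 48.1% of bins hold a snoRNA, the share was 57.7% to 64.5% in all 8 libraries, and no comparison passed the test.

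Counts of members stood beside wide backgrounds. In TT-Seq against sheared total RNA 3 members (SNHG1, ZFAS1, EPB41L4A-AS1) were higher and 0 lower, where 47.7% of hosts passed, 25.4% higher and 22.3% lower. In TT-Seq against 4sU-Seq 2 were higher and 0 lower, where 19.2% passed, 13.9% higher and 5.23% lower. In 4sU-Seq against unsheared total RNA ZFAS1 was higher (0.72 ± 0.214) and SNHG15, host of SNORA9, lower (-0.99 ± 0.227), where 33.1% of hosts passed, 12.2% higher and 20.9% lower. In the interaction SNHG1 (1.39 ± 0.296) and EPB41L4A-AS1 (1.86 ± 0.375) were higher, where 6.97% passed, 4.88% higher and 2.09% lower. These calls depend on how a snoRNA bin is defined: with only bins that hold at least 50 bases of snoRNA, 0 members were higher in TT-Seq against sheared total RNA. That count was also 0 without TT-Seq replicate 1, and 1 without TT-Seq replicate 2 or without Total RNA-Frag-Seq replicate 1. In TT-Seq against 4sU-Seq it was 1 without TT-Seq replicate 1, and the ZFAS1 call in 4sU-Seq against unsheared total RNA was lost in 5 alternatives.

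Signal past the annotated 3′ end was highest in TT-Seq. In the 1 kb after the end, density was 105% and 119% of the span density for SNHG15 in TT-Seq, 43.0% and 40.6% in 4sU-Seq, and 11.4% to 17.1% in the 4 total libraries. For GAS5 it was 63.1% and 69.1% in TT-Seq, 21.2% and 28.0% in 4sU-Seq and 11.7% to 14.2% in total RNA. SNHG12 reached 134% and 122% in TT-Seq against 8.00% to 13.5% in total RNA. In these 3 hosts the TT-Seq libraries did not overlap any other.

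Over 6176 RefSeq spans with enough counts, 71.3% were higher after the end relative to the span in TT-Seq than in sheared total RNA and 4.49% lower. By limma 9 members were higher, from 1.76 ± 0.30 (EPB41L4A-AS1) to 3.64 ± 0.31 (SNHG6), and SNHG26 did not pass (0.69 ± 0.35, adjusted p = 0.11). The member median was 3.05 against 1.78 for all spans. In 4sU-Seq against unsheared total RNA 7 members were higher, where 45.2% of spans were higher and 3.79% lower, and the number was 3 without either 4sU-Seq replicate. In TT-Seq against 4sU-Seq 8 members were higher, where 25.8% of spans were higher and 1% lower, but leaving out a TT-Seq or 4sU-Seq library removed nearly all calls. Without TT-Seq replicate 1, TT-Seq replicate 2 or 4sU-Seq replicate 2, 0 members and 0 spans were higher, and without 4sU-Seq replicate 1, 1 member and 187 spans were. Where calls were lost the log2 values stayed close to those with all libraries, at 1.24 to 1.64 for GAS5 (1.44 with all) and 2.03 to 2.43 for SNHG5 (2.23 with all).

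**Figure D4:**
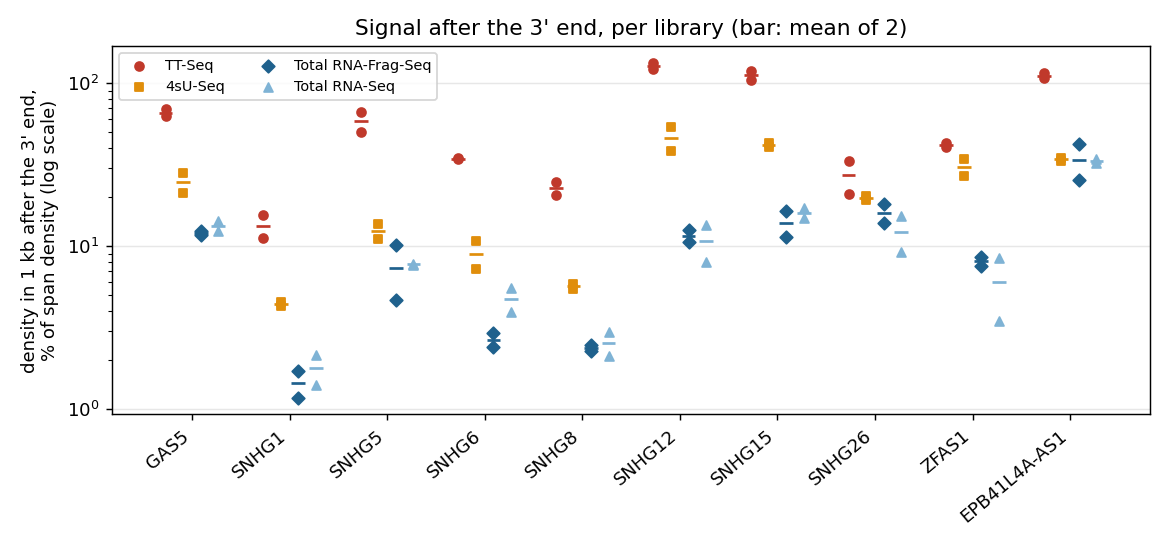
Density in the 1 kb after the 3′ end as a percentage of the density over the span (log axis), 1 point per library and a bar at the mean of 2. TT-Seq points lie above those of the other groups in each member; for SNHG26 the TT-Seq point at 20.8% is close to 4sU-Seq at 20.3%.

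RNA polymerase II ChIP was read over the same spans without strand, so neighbours and divergent transcription count too. In S2P 9 members were lower than in N20, and EPB41L4A-AS1 did not pass (-0.83 ± 0.337, edgeR adjusted p = 0.0586). Among all features 42% passed, 22.6% higher and 19.4% lower (2018 and 10788 features without TMM scaling, against 4650 and 3981), and in the members' range of lengths 12.4% were higher and 29.4% lower. The member median was -1.32, against -0.08 for all features and -0.42 in that range.

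SNHG1 was lowest, with 13.3 and 12.97 CPM in N20 and 2.68 and 4.34 CPM in S2P (-1.92 ± 0.332, edgeR adjusted p = 1.77e-04). SNHG12, the member with least TT-Seq RNA per kb, had the most N20, at 85.3 and 69.8 CPM, and S2P of 22.9 and 37.0 CPM. Its span overlaps TRNAU1AP, so the unstranded ChIP counts are shared with that gene. ZFAS1 had 17.99 and 19.6 CPM in N20 and 12.5 and 9.67 CPM in S2P (-0.76 ± 0.285, adjusted p = 0.04). The ZFAS1 call was lost in 3 alternatives and that of SNHG26 (-0.90 ± 0.283) in 2.

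N20 was concentrated near the start. Bins within 500 bases of it held 100% and 98.7% of N20 counts in SNHG5, 98.1% and 85.6% in SNHG1, 68.5% and 63.1% in ZFAS1 and 56.5% and 47.0% in GAS5. The GAS5 window was set from the annotated start, whereas its RNA began further in. In ZFAS1 S2P was less concentrated, with 21.9% and 46.7% of counts in that window. SNHG26 had 43.5% and 64.7% in S2P, against 81.5% and 76.6% in N20. The S2P shares of SNHG6 (76.1% and 79.7%), SNHG15 (74.7% and 79.6%) and SNHG12 (74.3% and 86.8%) also lay below both of their N20 libraries. In GAS5 S2P, at 35.4% and 55.0%, overlapped N20, as it did in the remaining members. The 2 S2P libraries differed widely in ZFAS1, SNHG26 and GAS5. Of all bins of the genome, 69.6% to 79.4% held 0 in a ChIP library, and every ChIP bin count was even, so a 0 here says little about polymerase in the body of a gene.

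**Figure D5:**
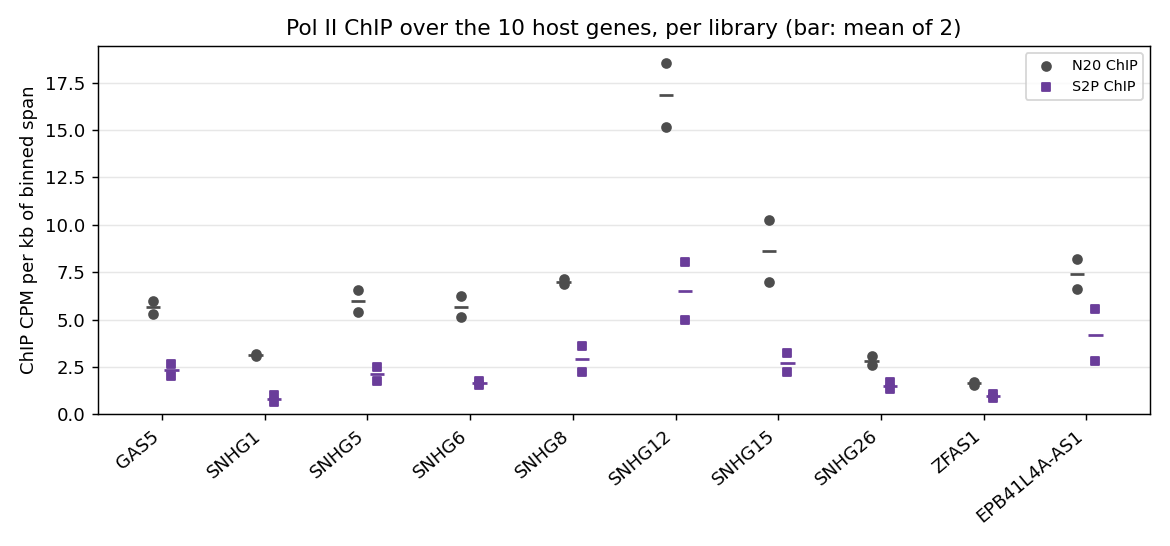
ChIP CPM per kb of binned span for N20 and S2P, 1 point per library and a bar at the mean of 2. N20 exceeds S2P in each member, and SNHG12 is highest in both (16.9 and 6.50 on average).

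Other genes of the same pathway were read in TT-Seq against sheared total RNA, where 43.3% of all features were higher and 37.7% lower, with a median of 0.10. Listed genes were summed over RefSeq spans, whereas most features are regions called on the TT-Seq signal. Of 18 other non-coding snoRNA hosts, 15 were tested: 1 was higher (SNHG19, 0.40 ± 0.144) and 12 lower, the lowest being SNHG29 (-2.15 ± 0.056) and SNHG10 (-1.93 ± 0.110), with a median of -0.98. Of 37 coding hosts 4 were higher and 33 lower (median -0.92). The ribosomal protein genes RPL23A (0.98 ± 0.194) and RPL5 (0.81 ± 0.166) were highest, and EEF2, a translation elongation factor (-3.09 ± 0.084), and HSPA8, a chaperone (-2.49 ± 0.074), lowest.

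Genes for snoRNP proteins and their assembly had 3 of 19 higher and 12 lower, from NUFIP1, an assembly factor (0.58 ± 0.077), and NOP58, a box C/D core protein (0.55 ± 0.052), to NOLC1 (-2.01 ± 0.065) and NHP2, an H/ACA core protein (-2.22 ± 0.099). Of 14 genes of nonsense-mediated decay 10 were lower (CASC3 -1.17 ± 0.066, SMG8 -1.15 ± 0.092). Of 17 genes for intron debranching and the exosome 5 were higher (EXOSC4 1.38 ± 0.187, MTREX 0.43 ± 0.049) and 9 lower (EXOSC6 -1.81 ± 0.111, EXOSC1 -1.06 ± 0.088). Over the 4 RNA groups, the named features whose centred log2 pattern lay nearest to the member median were PPCS, RFX1, FAM83G, COPS9 and LINC01786, at a Euclidean distance of 0.065 to 0.073.

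The RNA libraries held 25.9 M to 71.3 M binned counts (M for mega) and the ChIP libraries 12.6 M to 73.7 M. The 10 K562 markers summed to 720 to 968 CPM over the RNA libraries, against 104 to 331 CPM for 3 epithelial, 42.8 to 65.4 CPM for 3 myeloid, 1.12 to 6.13 CPM for 2 T cell, 0.239 to 0.940 CPM for 2 B cell and 0.133 to 0.644 CPM for 2 hepatocyte markers. Their part in the results was not tested. In bulk RNA, fewer cells of a type and less RNA per cell cannot be told apart.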

How the data were processed

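The authors deposited whole fragment counts in 200 bp bins, stranded in the RNA columns and unstranded in the ChIP columns, per the deposited description file. Per the submitters' processing notes the tools included SAMtools, Bowtie2 2.1.0 and STAR 2.3.0, on build hg38. Their roles and the treatment of reads with several matches are not given in the sources used. Other deposited values, bin positions and rates per unit, were read as the authors gave them; the rates are not reported. Bins touching each RefSeq span (GRCh38.p14) were summed on its strand. SNHG6 and SNHG15 had no strand in the reference tables and took that of the authors' unit. The table held these spans, 135 in all with the other listed genes, and the authors' 21874 units less 128 that they replaced. The 16 columns of the exon and intron tables were not used, because their row names match no unit.

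edgeR 4.0.16 (R 4.3.3) used filterByExpr, TMM, robust glmQLFit over the 8 RNA libraries together, glmQLFTest and Benjamini-Hochberg adjustment at 0.05; 19459 RNA and 20555 ChIP features were tested. CPM uses TMM-scaled library sizes. The common dispersion was 0.00302 for RNA and 0.0343 for ChIP. limma 3.58.1 tested log2 density ratios with a pseudocount of 0.5 where both parts had a mean count of at least 10. The scripts were tested on simulated data. Alternatives included DESeq2 1.42.0, other scalings, no filter, leaving out each library and a replicate block.

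The members and lists were chosen with earlier results of these data known. All members, the 2 highest and 2 lowest called genes of each list, and 5 nearest patterns are named, except 1 gene that is not reported here. The window after the 3′ end, the comparison by length and the halved ChIP counts were added after seeing the data. The window was first tried over the authors' units, and replaced by RefSeq spans because the ends of the units were called on TT-Seq.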

Additional observations from a re-analysis of the deposited data

Results flagged for a closer look

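The effect of purification differed between sheared and unsheared RNA, by the interaction test itself, in 5 members. Of all features 34.4% passed that test, 8.65% higher and 25.7% lower. On the log2 scale the interaction was -1.23 for EPB41L4A-AS1, -1.15 for SNHG8, -0.75 for SNHG1, 0.37 for SNHG26 and 0.43 for ZFAS1. Each of these directions was kept in every alternative run. The SNHG26 call was lost in 2, without 4sU-Seq replicate 1 (0.29 to 0.31 over both) and without Total RNA-Seq replicate 2.

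The same interaction was met by the density of snoRNA bins against the rest of the host in SNHG1 (1.39) and EPB41L4A-AS1 (1.86), where 6.97% of 287 hosts passed. Both calls were lost in 6 alternatives each.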

How the results depend on the processing

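With 2 libraries a group, many calls rest on single libraries, and ChIP depth leaves most bins at 0. Without TMM scaling the median of all features moved from 0.10 to 0.44 in TT-Seq against sheared total RNA, from 0.19 to 0.34 in 4sU-Seq against unsheared total RNA and from -0.08 to -0.74 in S2P against N20. Without TMM the TT-Seq against sheared total RNA value of GAS5 reversed from -0.32 to 0.0298, and the SNHG8 snoRNA bins in TT-Seq against 4sU-Seq reversed to 1.21 with bins of at least 50 snoRNA bases. The causes were not tested.

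In TT-Seq against sheared total RNA, members higher fell from 2 to 1 with DESeq2 size factors, the DESeq2 Wald test, no filter, only the libraries compared, no snoRNA bins or only bins wholly inside the span; features lower were 4882 without TMM. In 4sU-Seq against unsheared total RNA, members lower were 4 with DESeq2 size factors, only the libraries compared or no snoRNA bins, 5 with the Wald test and 1 without TMM, and features higher were 4728 with the Wald test. In TT-Seq against 4sU-Seq, members higher were 2 with DESeq2 size factors or without TMM. In sheared against unsheared total RNA, features higher and lower were 2030 and 2493 with DESeq2 size factors, 2004 and 2214 with the Wald test and 1613 and 3231 without TMM, and 1919 were lower with only the libraries compared. Members lower there were 5 with either DESeq2 setting, 6 without TMM and 2 with only the libraries compared or bins wholly inside. In the interaction, features higher were 2844 with DESeq2 size factors, 3509 were higher and 3268 lower without TMM, and members lower were 5 with bins wholly inside. In S2P against N20, features higher were 2018 and lower 10788 without TMM. The S2P start share had a median of 88.8% with a window of 1000 bases.

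For snoRNA bins, a pseudocount of 5 gave 2 members higher and 3 lower in 4sU-Seq against unsheared total RNA, 31 hosts and 2 members lower in TT-Seq against 4sU-Seq, and 29 hosts higher and 12 lower in the interaction. A minimum mean count of 50 gave 37 hosts higher and 40 lower in TT-Seq against sheared total RNA, 3 members higher and 3 lower in 4sU-Seq against unsheared total RNA, 2 members lower in TT-Seq against 4sU-Seq, 1 host lower in sheared against unsheared total RNA and 32 hosts higher in the interaction. Bins with at least 50 snoRNA bases gave 0 members higher in TT-Seq against sheared total RNA and in the interaction, and 3 lower in 4sU-Seq against unsheared total RNA.

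Leaving out 1 library at a time, TT-Seq against sheared total RNA had 1 to 2 members higher. In 4sU-Seq against unsheared total RNA, 4645 to 8037 features were higher, with 1 to 3 members higher and 2 to 6 lower. In TT-Seq against 4sU-Seq, 1 to 2 members were higher and 5 to 8 lower. In sheared against unsheared total RNA, 926 to 3515 features were higher and 296 to 2528 lower, with 0 to 6 members lower. In the interaction, 3264 to 5062 features were lower and 1 to 2 members higher, and in S2P against N20 1586 to 6118 features were lower. For snoRNA bins, hosts higher and lower ran from 44 to 83 and 42 to 67 in TT-Seq against sheared total RNA (0 to 3 members higher), 16 to 39 and 38 to 66 in 4sU-Seq against unsheared total RNA (0 to 1 member higher, 0 to 2 lower), 5 to 47 and 4 to 20 in TT-Seq against 4sU-Seq (1 to 2 members higher), 0 to 5 and 0 to 1 in sheared against unsheared total RNA, and 0 to 32 and 0 to 13 in the interaction (0 to 2 members higher). After the 3′ end, 151 to 309 spans were lower in TT-Seq against sheared total RNA. There, 1406 to 3059 were higher and 85 to 263 lower in 4sU-Seq against unsheared total RNA (3 to 7 members higher), and 0 to 2257 higher and 0 to 81 lower in TT-Seq against 4sU-Seq (0 to 8 members higher).

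The replicate block left every count within 1.5 times its value. It changed 6 calls of single genes: SNHG15 in TT-Seq against sheared total RNA (-0.20, adjusted p = 0.0389), SNHG5 in 4sU-Seq against unsheared total RNA (-0.70) and in the interaction (-0.93), and EPB41L4A-AS1 in S2P against N20 (-0.88) passed, while the ZFAS1 snoRNA bins (0.59) and SNHG6 after the end in 4sU-Seq against unsheared total RNA (0.88) no longer did. To see whether same-numbered libraries were paired, the log2 CPM difference of replicate 1 from replicate 2 was taken within each group. These differences correlated by 0.00138 to 0.101 between RNA groups and by -0.0754 between ChIP groups, so the numbers were not taken as pairs.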
